A study of Homo sapiens with 8 samples.

Results

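The 3 clonal lines without the enhancer E2 (ΔE2) were compared directly with the 3 clonal lines without the neighbouring element SE12313-b (ΔSE12313-b), which is 6 of the 8 samples of the series. The remaining 2 samples, EA.hy926 control cells, entered no test and are quoted as a reference level. For each gene symbol the transcript with the highest mean over all 8 samples was kept, and a gene was tested when it reached 0.5 FPKM in at least 2 samples, as 13789 of 27945 genes did. FPKM are the reads of a transcript divided by the length of its exons and by the size of the library.

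All samples are EA.hy926, an immortalized human line made by fusing umbilical vein endothelial cells with lung carcinoma cells, and total RNA without ribosomal RNA was sequenced. In the ΔE2 samples the genotype is the E2 knock-out and in the ΔSE12313-b samples the SE12313-b knock-out. Both were made with Cas9 protein and a pair of guide RNAs, and each line was grown from a single cell after dilution. The labels give the control samples no further treatment. The study describes controls that had received guide RNAs for its proliferation assay, and it does not say this of the RNA samples. A difference between the deletions is therefore a difference between 3 and 3 clonal lines, in which whatever the founding cells carried cannot be told apart from the deletion. The sources do not say whether the 3 lines of 1 deletion came from separate transfections. They shared the arm shifts given below, so whether they are independent lines cannot be told from these data, and the p-values measure only the spread among them. In bulk RNA, fewer cells of a kind and less RNA per cell cannot be told apart either.

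A super-enhancer is a cluster of enhancers that lie close together and are densely bound by transcription factors, and such clusters often lie near genes that define a cell type. Endothelial cells line the blood vessels. They set vessel tone and clotting, release chemokines and carry the receptors and adhesion molecules by which blood cells leave the vessel. E2 and SE12313-b belong to the same super-enhancer. In the reporter assays of the study E2 was active and SE12313-b was not, and the comparison asks which genes differ when either is removed.

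The guides place both deletions on chromosome 16. Each guide had 1 perfect site in the genome (GRCh37, searched on both strands), shown 5′ to 3′ on the strand it matches with the motif that Cas9 requires (the PAM) in capitals:
E2 right: gagttcagactcaactcttgAGG
E2 left: tgtaccacatcagaaggcttGGG
SE12313-b right: ctattatttctcccgacgtaGGG
SE12313-b left: aaagaagcttccggttgaatTGG
The E2 guides match the bases 77627877 to 77627896 on the plus strand and 77630393 to 77630412 on the minus strand. From these sites, cuts 3 bases from the PAM would remove 2502 bp, from 77627894 to 77630395, within the non-coding gene LINC02131 and without overlapping any of its exons. The SE12313-b guides match 77604893 to 77604912 on the plus strand and 77602390 to 77602409 on the minus strand, and would remove 2517 bp, from 77602393 to 77604909, outside any annotated gene. Between these stretches lie 22984 bp. The junctions in the clones were not analysed here.

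The clone libraries held between 13616463 and 19101155 reads. Of 12 endothelial markers, 9 reached 1 FPKM in every clone of either deletion. VE-cadherin (CDH5) stood at 72.5, 141 and 83.8 FPKM in the ΔE2 clones and at 74.8, 64.3 and 92.8 in the ΔSE12313-b clones. CLDN5 was at 0 in every sample, and the VEGF receptor KDR did not pass 0.292 FPKM in any clone. The summed level of the endothelial list was 336 to 527 FPKM in the ΔE2 clones and 336 to 461 FPKM in the ΔSE12313-b clones. Of 6 epithelial markers only the keratins KRT7, KRT8 and KRT18 were above 1 FPKM, and their defining partners were at or near 0, with CDH1 at 0 and EPCAM at most 0.215 FPKM. The summed epithelial list ran from 1084 to 1210 FPKM in ΔE2, from 811 to 1069 in ΔSE12313-b and from 361 to 363 in the controls. It stands beside the results below as a value that moved with the groups, and its part in them was not tested. The 5 blood markers summed to at most 0.166 FPKM in any clone, with PTPRC at most 0.012.

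Whole chromosome arms differed between the deletions, and the genes were therefore tested both as measured and after each library had been centred arm by arm. On 9 of 41 arms the median log2 difference between the deletions was at least 0.2 away from that of all genes. On all 9 the 3 ΔE2 and the 3 ΔSE12313-b clones did not overlap, as was so on 26 of the 41 arms. The arms 6q, 4q, 11q and 16q were higher in ΔE2, by 0.57, 0.45, 0.40 and 0.28 on the log2 scale. The arms 10p, 16p, 10q, 12p and 3q were higher in ΔSE12313-b, with differences of -0.48, -0.43, -0.35, -0.28 and -0.22. The clones of 1 deletion lay close together on each of these arms, so that they shared the shift. These shifts are given to say what was taken out, and only genes that differed with and without them are described by function.

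**Figure D1:**
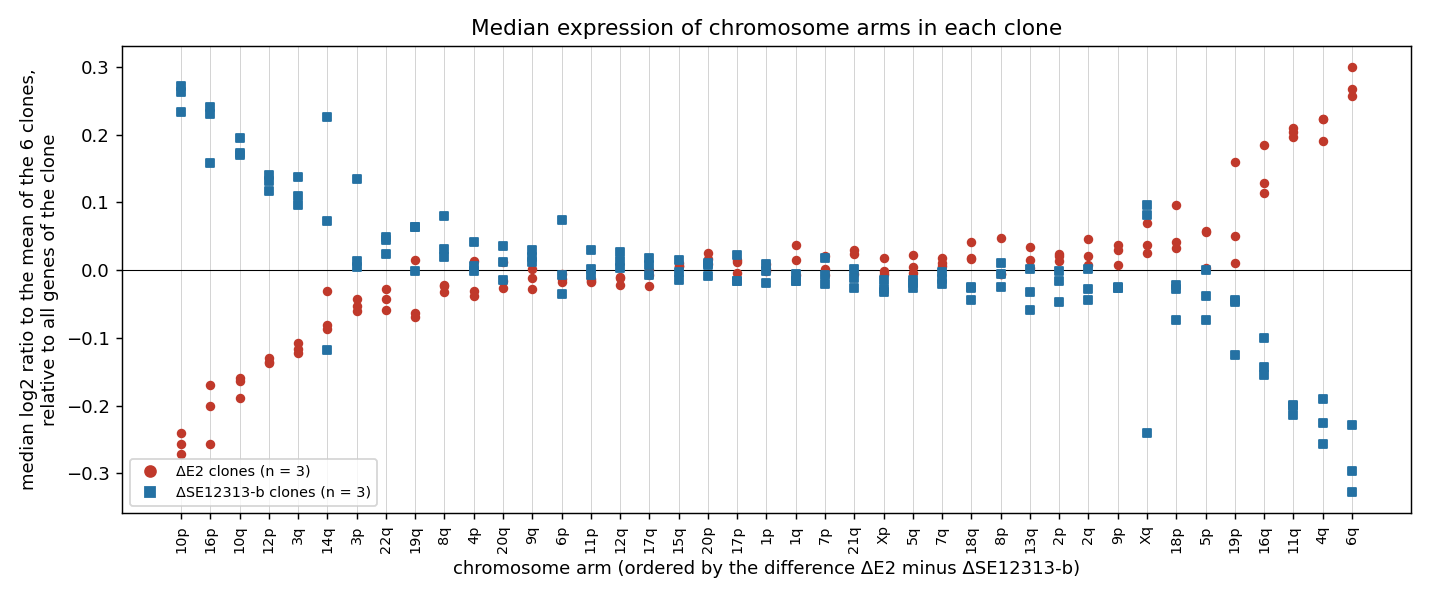
Median log2 ratio of the genes of each chromosome arm to the mean of the 6 clones, relative to all genes of the same clone (y axis), for 41 arms ordered by the difference between the deletions (x axis). Points are single clones, and the ΔE2 and ΔSE12313-b clones are apart at both ends, from 6q (0.57 higher in ΔE2) to 10p (difference -0.48).

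A differentially expressed gene (DEG) had an adjusted p under 0.05 in limma on log2(FPKM + 0.1), with Benjamini-Hochberg adjustment over the 13789 genes, and a difference of at least 2-fold on that scale. Differences are written as log2 of ΔE2 minus ΔSE12313-b, so that a negative value is higher in ΔSE12313-b, and they understate the change of genes with low levels. As measured, 199 genes were higher in ΔE2, which is 1.44% of the genes tested, and 328 were higher in ΔSE12313-b, which is 2.38%. Over all genes the median difference was -0.11, and with each library centred on its own median the balance turned to 250 genes higher in ΔE2 and 219 higher in ΔSE12313-b. After centring by arm there were 180 and 170. The direction was the same in both tests for 147 genes higher in ΔE2 (1.07%) and 167 higher in ΔSE12313-b (1.21%), and these 314 DEGs are the subject of what follows. These shares of all genes are the background for every count of DEGs in a list below. Of the 213 DEGs that were called only before centring, 117 lay on the 9 shifted arms. Of the 13789 genes tested, these arms held 285 (6q), 300 (4q), 546 (11q), 274 (16q), 119 (10p), 383 (16p), 406 (10q), 181 (12p) and 394 (3q). Adding a further step, in which each gene was centred on its 50 neighbours, left 132 and 151 of the 314 as DEGs. All 527 DEGs called as measured had clones that did not overlap between the deletions, as had 40.8% of all genes. Leaving out 1 clone changed the count most for ΔE2 clone 3, with 74 and 91 DEGs of both tests, for ΔE2 clone 1, with 89 and 122, and for ΔSE12313-b clone 1, with 88 and 89. The sign of all 314 DEGs was the same in each of the 6 omissions, but this was fixed in advance. Where the clones of the 2 deletions do not overlap, leaving out 1 clone cannot change the sign. In the test as measured, 209 remained DEGs in all 6 omissions, and 105 lost the call at least once. The call after centring was not followed gene by gene. The 74 and 91 DEGs without ΔE2 clone 3 mean that more than 105 of the 314 lost the call of both tests. Where a gene that lost the call as measured is described below, the clones are named with the highest adjusted p (limma, Benjamini-Hochberg) over the 6 omissions. A gene without such a remark may have lost the call after centring.

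**Figure D2:**
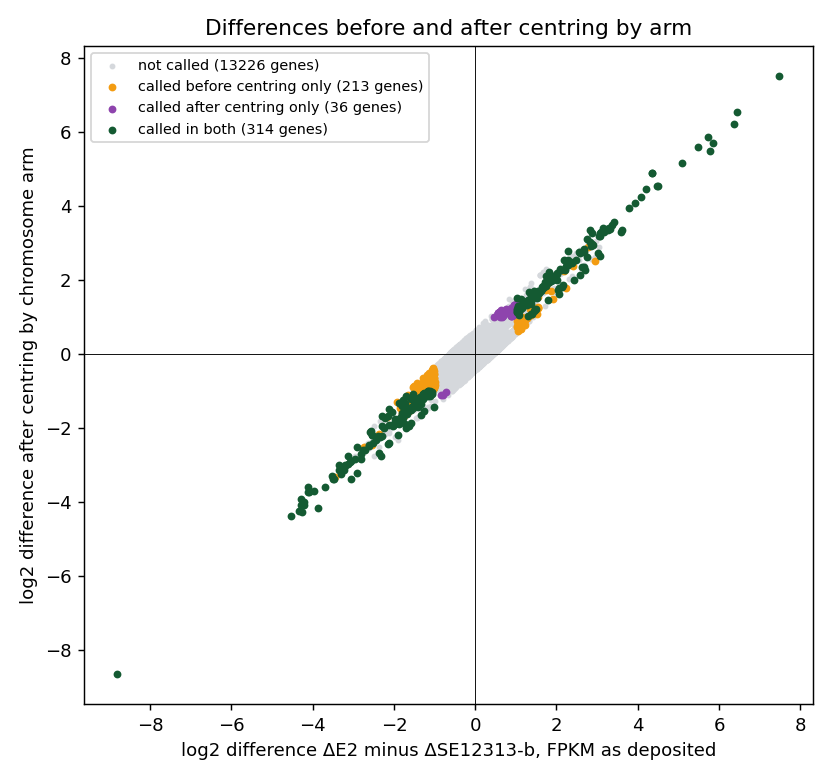
Log2 difference between the deletions (ΔE2 minus ΔSE12313-b) as measured (x axis) and after centring by chromosome arm (y axis), 1 point per gene. Coloured points are the 147 and 167 DEGs of both tests, and they run from -8.81 (TMEM132D-AS1) to 7.48 (EPB41L3) on the x axis.

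By type, 248 of the 314 DEGs code for proteins, 104 of them higher in ΔE2 and 144 higher in ΔSE12313-b. Non-coding RNAs gave 28 and 15, small nucleolar RNAs 14 and 2, and pseudogenes 1 and 6. The median size of the difference was 1.78 on the log2 scale. In 58 of the 314 the clones of the higher group differed among themselves by more than 2-fold.

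Many of the largest differences were genes with hardly any reads in all 3 clones of 1 deletion. At most 3 reads in every ΔSE12313-b clone were found for 37 genes higher in ΔE2, 16 of them protein-coding, and at most 3 reads in every ΔE2 clone for 21 genes higher in ΔSE12313-b, 11 of them protein-coding. In some DEGs the higher group had few reads too. A mean under 10 reads over the 6 clones was found for 23 DEGs higher in ΔE2 and 9 higher in ΔSE12313-b. MIR6875 had 1 read in each ΔE2 clone and none elsewhere, passed the filter through the ΔE2 clones alone, and was no DEG by limma's voom on the reads. EPB41L3 (chromosome 18, 5392380 to 5628990, minus strand, GRCh37), a membrane skeleton protein of the band 4.1 family, stood at 17, 16.1 and 20.7 FPKM in the ΔE2 clones and had no read in any ΔSE12313-b clone, while the controls had 8.99 and 9.04. Against 3 reads in each ΔSE12313-b library it was at least 362-fold higher in ΔE2, with an adjusted p of 2.43e-05 (limma, Benjamini-Hochberg). PLCB2 (chromosome 15, 40580098 to 40600174, minus strand), a phospholipase C that acts downstream of G protein-coupled receptors, had 4.71, 6.17 and 4.95 FPKM in ΔE2 and no read in ΔSE12313-b, at least 126-fold apart. THY1 (chromosome 11, 119288651 to 119295695, minus strand), a surface glycoprotein with a lipid anchor, had 4.96, 5.84 and 5.39 FPKM against none and was at least 57.7-fold higher. Both were low in the controls, PLCB2 at 0.805 and 0.721 and THY1 at 0.421 and 0.724 FPKM. FAM9B (chromosome X, 8992273 to 9002168, minus strand), a gene of the X chromosome known from testis, had 4.35, 4.41 and 4.39 FPKM in the ΔE2 clones, hardly any spread, no read in ΔSE12313-b and 0.452 and 0.277 in the controls. The bound for FAM9B is 47.6-fold.

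In the other direction NCAM2 (chromosome 21, 22370614 to 22804725, plus strand), a neural cell adhesion molecule of the immunoglobulin family, had no read in any ΔE2 clone and 2.05, 1.89 and 1.86 FPKM in the ΔSE12313-b clones, at least 21.3-fold higher, with 1.16 and 1.22 in the controls. The antisense transcript TMEM132D-AS1 (chromosome 12, 129594235 to 129597843, plus strand) gave the largest difference of all. It had 42.1, 70.7 and 79.4 FPKM in ΔSE12313-b and 0, 0 and 0.165 in ΔE2, with 7.95 and 8.36 in the controls, which lay between. The 3 ΔE2 libraries held 1 read of it and the ΔSE12313-b libraries 1332. How strands were handled in counting is not stated, so reads of the gene and of its antisense partner may be mixed, although TMEM132D itself was at 0 FPKM in every clone. EEF1A2, the elongation factor form of muscle and neurons, had no read in ΔE2 and 0.56, 0.507 and 1.58 FPKM in ΔSE12313-b, at least 9.55-fold higher. PIK3C2G, a class II phosphoinositide 3-kinase, also had none against 0.694, 0.672 and 0.588 FPKM, at least 17.4-fold. Its neighbour PLEKHA5 on chromosome 12 had 4 reads in ΔE2 and 189 in ΔSE12313-b, a ratio per library size of 50.3 (95% interval 19.3 to 187). PLCZ1, which lies between them and was too low to be tested, had 0 FPKM in every ΔE2 clone and 0.262, 0.379 and 0.118 in ΔSE12313-b. Intervals and bounds cover counting error only.

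**Figure D3:**
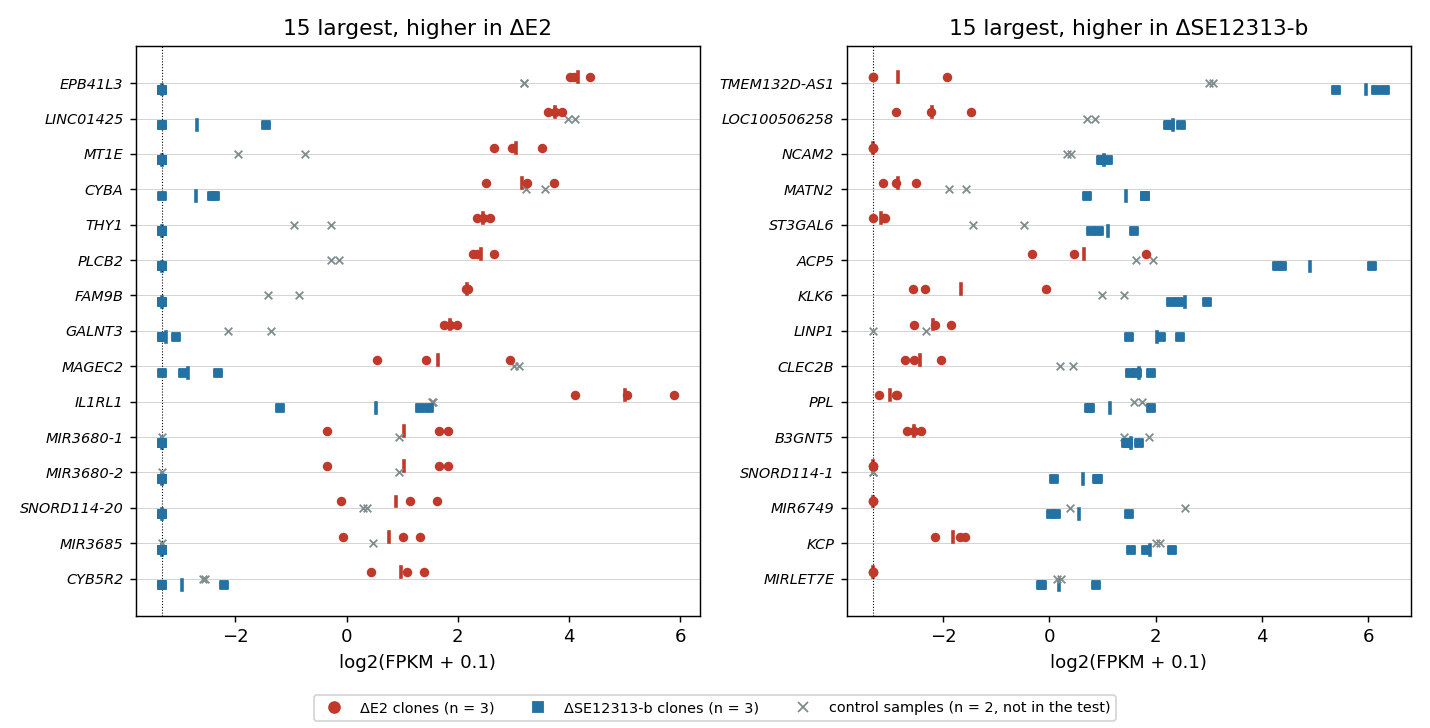
Levels as log2(FPKM + 0.1) (x axis) of the 15 DEGs with the largest difference in each direction (y axis) in each sample, with a vertical bar at the mean of each group of clones and a dotted line at 0 FPKM. In 13 of these 30 genes all 3 clones of the lower group had no read, and the controls, shown as crosses, often lie between the groups. Some rest on few reads in the higher group as well, such as MIR3685 with 5 reads in ΔE2.

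For 3 genes with large differences the 250 bases upstream of the start of the transcript measured are shown (GRCh37, 5′ to 3′ on the strand of the gene), with each CG pair in capitals, since they span the range from many to 1. A CG pair is where DNA methylation occurs in human cells, which was not measured here. EPB41L3 and NCAM2 had no read in the clones of 1 deletion, and IL1RL1 changed in level.
EPB41L3 (chr18:5628991-5629240, minus strand, 25 CG pairs): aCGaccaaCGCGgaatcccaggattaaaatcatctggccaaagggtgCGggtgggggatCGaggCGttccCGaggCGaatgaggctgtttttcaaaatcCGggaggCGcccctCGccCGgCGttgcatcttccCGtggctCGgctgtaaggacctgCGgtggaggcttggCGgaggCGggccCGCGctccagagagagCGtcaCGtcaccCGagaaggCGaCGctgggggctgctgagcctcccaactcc
NCAM2 (chr21:22370364-22370613, plus strand, 39 CG pairs): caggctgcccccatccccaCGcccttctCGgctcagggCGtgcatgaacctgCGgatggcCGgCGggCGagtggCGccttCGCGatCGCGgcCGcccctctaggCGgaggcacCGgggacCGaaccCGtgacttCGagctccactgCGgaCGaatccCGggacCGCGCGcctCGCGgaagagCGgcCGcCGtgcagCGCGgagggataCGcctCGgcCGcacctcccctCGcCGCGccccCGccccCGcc
IL1RL1 (chr2:102927712-102927961, plus strand, 1 CG pair): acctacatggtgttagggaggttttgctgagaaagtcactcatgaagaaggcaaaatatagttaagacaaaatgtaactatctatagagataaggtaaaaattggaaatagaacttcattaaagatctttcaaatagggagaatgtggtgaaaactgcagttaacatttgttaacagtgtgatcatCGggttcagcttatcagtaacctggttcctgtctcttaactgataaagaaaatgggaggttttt
Such a window was read for 13784 of the 13789 genes tested. These had a median of 17 CG pairs, with at most 5 in 17.3% of them, and over all 27861 genes of the files with a window the share with at most 5 was 36.0%. Among the DEGs higher in ΔE2, 146 of 147 had a window, with a median of 6 and at most 5 pairs in 49.3%. Among the 167 higher in ΔSE12313-b the median was 11 and the share 31.7%. The share with few CG pairs was thus higher among the DEGs of both directions than among the genes tested, a description without a test. Over protein-coding genes alone the shares were 45.2% and 29.9%, against 12.5% of those tested and 26.5% of those in the files.

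The receptor and the ligand of the IL-33 pathway differed in opposite directions. IL-33 is an alarmin that endothelial cells store in the nucleus, and ST2, the product of IL1RL1, is its receptor and signals through the adaptor MyD88. IL1RL1 (chromosome 2, 102927962 to 102968497, plus strand) stood at 32.6, 17.2 and 59 FPKM in the ΔE2 clones, at 2.67, 2.41 and 0.339 in the ΔSE12313-b clones and at 2.85 and 2.8 in the controls. All 3 ΔE2 clones were above every other sample, though they spread over more than 3-fold among themselves, and the log2 difference was 4.47 ± 0.79 (SE), with an adjusted p of 0.0126 (limma, Benjamini-Hochberg). IL33 (chromosome 9, 6248481 to 6257983, plus strand) stood at 1.07, 1.84 and 0.959 FPKM in ΔE2, at 6.21, 5.16 and 8.24 in ΔSE12313-b and at 5.72 and 5.83 in the controls. Here the ΔE2 clones were below all other samples, and the difference was -2.28 ± 0.28, adjusted p 0.00493. MYD88 also was lower in ΔE2, at 2.55, 3.003 and 2.67 FPKM against 7.6, 6.68 and 8.66, a difference of -1.44 ± 0.13 with an adjusted p of 0.0026. The second receptor chain, IL1RAP, had 1.97, 2.22 and 2.46 and 3.55, 3.85 and 2.58 FPKM, which did not overlap and did not pass the test (adjusted p 0.0768). Of 9 tested genes of this pathway, a list drawn up after the values were seen, 1 was higher in ΔE2 and 2 were higher in ΔSE12313-b. IL1RL1 lost its call without ΔE2 clone 1 or 3 (adjusted p up to 0.0569).

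Among 22 chemokines and cytokines 3 were higher in ΔE2 and IL33 alone was higher in ΔSE12313-b, against a background of 1.07% and 1.21%. CXCL8 (interleukin 8), which attracts neutrophils, had 2.25, 2.03 and 5.01 FPKM in ΔE2 and 0.476, 0.715 and 0.111 in ΔSE12313-b. Both were below the controls, at 7.97 and 8.24. CCL2, which attracts monocytes, went from 12.7 to 22.1 FPKM in ΔSE12313-b to 30.3 to 56.4 in ΔE2, and both were above the controls at 4.99 and 4.8. CCL5, which attracts T cells, had 0.855, 1.81 and 0.96 FPKM against 0.254, 0.221 and 0.154. The log2 differences of these 3 chemokines ran from 1.37 to 2.67, with adjusted p of 0.0103 to 0.023 as measured and 0.016 to 0.0473 after centring (limma, Benjamini-Hochberg). CXCL8 came closest to the threshold of the 3. Of 27 cytokine receptors IL1RL1 was higher in ΔE2, while IL6R and LIFR, the receptors of interleukin 6 and of leukaemia inhibitory factor, were higher in ΔSE12313-b. IL6R had 1.29, 2.25 and 1.38 FPKM in ΔE2 and 3.82, 3.9 and 3.64 in ΔSE12313-b, and LIFR 0.218, 0.592 and 0.284 and 1.2, 1.33 and 1.74. Their common partner IL6ST had 22.9, 26.3 and 27.6 and 25.1, 24.2 and 23 FPKM, overlapping values with an adjusted p of 0.549. CD70, a membrane ligand of the tumour necrosis factor family, was higher in ΔSE12313-b, at 3.63 to 5.89 against 1.15 to 2.31 FPKM, as was C3AR1, the receptor of complement C3a, at 0.427 to 0.72 against 0.074 to 0.125. CXCL8 lost its call without ΔE2 clone 1 or 3 or ΔSE12313-b clone 1 (adjusted p up to 0.0801), as did CCL2 without ΔE2 clone 2 or 3 or ΔSE12313-b clone 1 or 3 (adjusted p up to 0.0788). IL6R lost its call without ΔE2 clone 3 or ΔSE12313-b clone 1 (adjusted p up to 0.0569), as did LIFR without ΔE2 clone 1 or 3 (adjusted p up to 0.0619). CD70 lost its call without any clone but ΔE2 clone 2 (adjusted p up to 0.0864). C3AR1 lost its call when neighbouring genes were centred.

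Of 44 interferon-stimulated genes OASL and IFIT1 were DEGs, both higher in ΔE2, and the median of the list was -0.09 against -0.11 for all genes. OASL, a relative of the oligoadenylate synthetases, stood at 10.4, 7.96 and 10.5 FPKM in ΔE2, at 4.34, 3.12 and 1.33 in ΔSE12313-b and at 1.67 and 1.88 in the controls. IFIT1, which binds viral RNA, stood at 3.42, 2.82 and 3.79 and 1.95, 1.99 and 1.01 FPKM. Others of the list were no DEGs, such as OAS1, which stood at 12, 14.7 and 12.4 FPKM in ΔE2 and 17.3, 16.9 and 23.1 in ΔSE12313-b (adjusted p 0.0457 and under 2-fold, limma, Benjamini-Hochberg), and ISG15 with 24.4, 19.8 and 25.1 against 24, 23.2 and 14.4 (adjusted p 0.555). TLR3, a sensor of double-stranded RNA in endosomes, was higher in ΔE2 at 4.33 to 5.91 against 1.51 to 2.47 FPKM, and lost its call when neighbouring genes were centred. OASL lost its call without ΔE2 clone 1, 2 or 3 or ΔSE12313-b clone 2 (adjusted p up to 0.0935), as did IFIT1 without any 1 of the 6 clones (adjusted p up to 0.142).

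The DEGs of hemostasis and vessel tone were higher in ΔE2. Of 25 genes tested, PLAT, EDN1 and PDE5A were higher in ΔE2 and no gene was higher in ΔSE12313-b, with 10 of the 25 under an unadjusted p of 0.05 and 3 DEGs by limma's voom on the reads. Over all genes tested 35.7% were under an unadjusted p of 0.05 and 4.29% were DEGs by voom. PLAT (chromosome 8, 42032236 to 42065242, minus strand), the tissue plasminogen activator that starts the breakdown of fibrin, stood at 179, 218 and 210.5 FPKM in ΔE2, at 53.6, 47.7 and 71.9 in ΔSE12313-b and at 112 and 109 in the controls. The controls lay between the groups, and the difference was 1.83 ± 0.16 on the log2 scale, or 3.54-fold, with an adjusted p of 0.00262 (limma, Benjamini-Hochberg). EDN1, the precursor of the vasoconstrictor endothelin 1, stood at 26, 21.9 and 31.1 against 15.4, 11.2 and 11.8 FPKM, and both groups were far above the controls at 1.17 and 1.15. PDE5A, which breaks down cyclic GMP, had 2.02, 2.44 and 2.6 against 0.442, 0.64 and 0.793 FPKM. MME, the membrane protease neprilysin, which degrades small peptides and endothelin among them, was higher in ΔSE12313-b, with 103, 104 and 117 FPKM against 32.6, 41.3 and 35.4 and 163 and 167 in the controls. EDN1 fell under 2-fold without ΔE2 clone 3 or ΔSE12313-b clone 2 or 3, to 0.91 on the log2 scale.

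Among 33 metalloproteinases and inhibitors PLAT, TIMP3 and SERPINE2 were higher in ΔE2 and ADAM23 was higher in ΔSE12313-b (background 1.07% and 1.21%). TIMP3, an inhibitor of metalloproteinases that binds to the matrix, had 39.7, 50.01 and 43 FPKM in ΔE2 and 20.5, 9.05 and 26.4 in ΔSE12313-b, with an adjusted p of 0.0466 as measured and 0.0466 after centring (limma, Benjamini-Hochberg), close to the threshold. SERPINE2, a protease inhibitor that blocks thrombin and plasminogen activators, had 1.28, 0.752 and 1.28 against 0.343, 0.497 and 0.289 FPKM. The urokinase PLAU had 76.1, 86.5 and 77.3 and 94.1, 106 and 83.9 FPKM, with an adjusted p of 0.155. ADAM23, a member without protease activity, had 1.1, 0.999 and 1.07 against 2.54, 2.71 and 2.21 FPKM. Of the kallikrein proteases KLK1 was higher in ΔE2 (0.482 to 1.48 against 0 to 0.217 FPKM) and KLK6 in ΔSE12313-b (4.76 to 7.71 against 0.07 to 0.855), a family looked at after the values were seen. PRSS35, PI16 and CPE, a serine protease, a secreted protein named peptidase inhibitor and a carboxypeptidase of secretory granules, were higher in ΔE2. TIMP3 lost its call without any clone but ΔSE12313-b clone 3 (adjusted p up to 0.128), as did SERPINE2 without ΔE2 clone 1 or 3 or ΔSE12313-b clone 1 or 3 (adjusted p up to 0.0895). KLK1 lost its call without any clone but ΔSE12313-b clone 3 (adjusted p up to 0.101), as did PRSS35 without ΔE2 clone 3 or ΔSE12313-b clone 1 (adjusted p up to 0.0519). KLK1 lost its call also when neighbouring genes were centred.

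**Figure D4:**
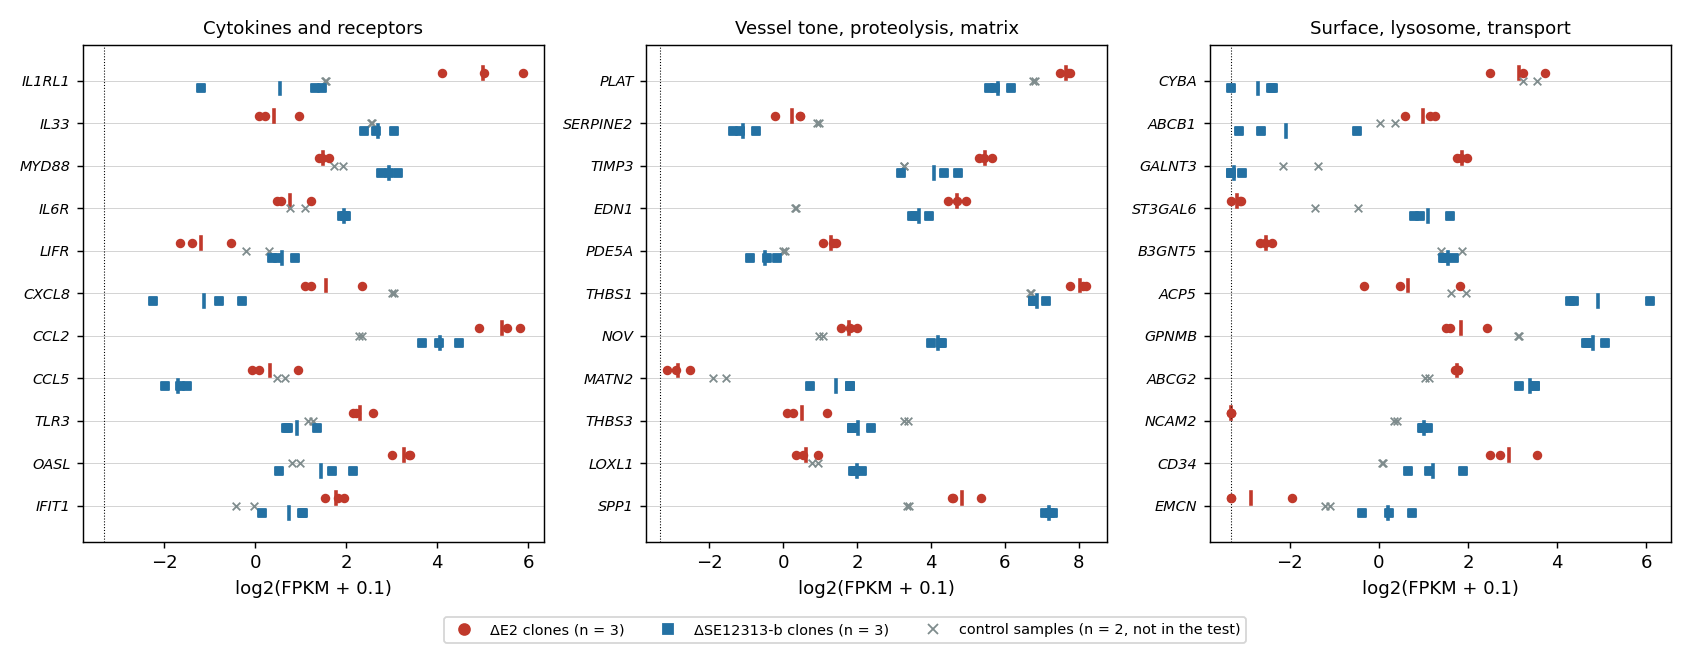
Levels as log2(FPKM + 0.1) (x axis) of 33 DEGs grouped by function (panels) in each sample, with a vertical bar at the mean of each group of clones and a dotted line at 0 FPKM. The ΔE2 clones are higher for IL1RL1, the chemokines and the genes of vessel tone, and the ΔSE12313-b clones for IL33, MATN2, ACP5 and GPNMB. The 2 groups of clones do not overlap in any of these genes, as in all 527 DEGs called as measured and in 40.8% of all genes.

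The matrix gave DEGs in both directions. Of 45 genes of the matrix and basement membrane, 2 were higher in ΔE2, THBS1 among them (background 1.07%). MATN2, THBS3 and LOXL1 were higher in ΔSE12313-b (background 1.21%). THBS1, thrombospondin 1, an abundant inhibitor of vessel growth, stood at 219, 296 and 279 FPKM in ΔE2, at 109, 108 and 140.2 in ΔSE12313-b and at 104 and 103 in the controls. Its relative THBS3 went the other way, at 0.972, 2.17 and 1.11 and 3.54, 3.55 and 5.15 FPKM, with the controls above both at 9.54 and 10.3. MATN2, a matrilin that forms filaments in the matrix, had 0.076, 0.014 and 0.035 FPKM in ΔE2 and 3.39, 3.4 and 1.55 in ΔSE12313-b, a difference of -4.29 ± 0.38 with an adjusted p of 0.0026 (limma, Benjamini-Hochberg). LOXL1, which crosslinks elastin and collagen, had 1.83, 1.17 and 1.35 against 3.63, 3.77 and 4.26. Outside the list, the laminin-related NTN4 (39 to 44.1 against 14.9 to 18.7 FPKM) and CCBE1, which is needed for lymphatic vessel growth (8.22 to 11.7 against 2.64 to 3.46), were higher in ΔE2. THBS3 lost its call without any clone but ΔE2 clone 2 (adjusted p up to 0.0796).

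SPP1 (osteopontin), a secreted ligand of integrins, had 40.8, 24.1 and 23.7 FPKM in ΔE2 and 136, 149 and 157 in ΔSE12313-b, and the controls were below both at 10.2 and 10.5. VTN (vitronectin) had 7 reads in ΔE2 and 91 in ΔSE12313-b, a ratio per library size of 13.8 (95% interval 6.46 to 35.4). LGALS3BP, a secreted scavenger receptor protein that binds galectins, had 10.8 to 14.4 against 26.8 to 52.7 FPKM. The heparan sulfate proteoglycan GPC1, C1QTNF3 and SCUBE1 were higher in ΔSE12313-b too. Of 4 tested CCN proteins, matricellular proteins chosen as a group after the values were seen, NOV and WISP2 were higher in ΔSE12313-b. NOV had 2.89, 3.42 and 3.91 FPKM in ΔE2 and 16.1, 19.3 and 19.5 in ΔSE12313-b, while CYR61 had 205, 160.1 and 217 and 128, 107 and 78.7 and CTGF 126, 53.7 and 162 and 58.4, 53.7 and 22.1. CYR61 missed the 2-fold limit as measured (log2 difference 0.91, adjusted p 0.0243), and CTGF had overlapping values with an adjusted p of 0.12. CYR61 and CTGF are also classical targets of YAP and TEAD, a list of which 22 were tested, with FOXF2, RBMS3 and EDN1 as DEGs, all higher in ΔE2, and a median of 0.13. C1QTNF3 lost its call without any clone but ΔSE12313-b clone 3 (adjusted p up to 0.0878), as did SCUBE1 without any clone but ΔE2 clone 2 (adjusted p up to 0.0914). WISP2 lost its call without ΔE2 clone 2 or 3 or ΔSE12313-b clone 1 or 2 (adjusted p up to 0.0811), as did FOXF2 without ΔE2 clone 1 or 3 or ΔSE12313-b clone 1 (adjusted p up to 0.0534). RBMS3 fell under 2-fold without ΔE2 clone 3 or ΔSE12313-b clone 2, to 0.94 on the log2 scale. SCUBE1 lost its call also when neighbouring genes were centred.

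Most endothelial identity markers were not DEGs. Of 27 tested, CD34 was higher in ΔE2 and EMCN was higher in ΔSE12313-b (background 1.07% and 1.21%). CD34, a sialomucin of endothelial and blood stem cells, stood at 5.54, 11.7 and 6.51 FPKM in ΔE2, at 1.48, 2.07 and 3.62 in ΔSE12313-b and at 0.967 and 0.954 in the controls. EMCN, the mucin endomucin, stood at 0, 0.16 and 0 FPKM in ΔE2, where 2 clones had no read, and at 1.07, 0.671 and 1.58 in ΔSE12313-b. ROBO4 was higher in ΔE2 as measured, at 18.7, 32.9 and 17.6 against 8.19, 7.69 and 11.8 FPKM (adjusted p 0.0234), but not after centring of its arm 11q (adjusted p 0.0745, limma, Benjamini-Hochberg). The adhesion molecule PECAM1 had 10.4, 20.9 and 10.2 against 28.2, 22.8 and 27.1 FPKM and fell short of 2-fold (log2 difference -0.98, adjusted p 0.0528). Of 29 endothelial transcription factors only ETS1 was a DEG, with 36.8, 31.8 and 39.6 FPKM in ΔE2 and 12.7, 13 and 12.4 in ΔSE12313-b, 2.82-fold higher in ΔE2. ETS1 lies on 11q as well. Its difference fell from 1.49 to 1.21 on the log2 scale with the arm centred, and its call was lost when neighbouring genes were centred. CD34 lost its call without any clone but ΔSE12313-b clone 3 (adjusted p up to 0.0861).

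Several adhesion and synapse proteins known from neurons differed. Of 19 tested, SLITRK1 was higher in ΔE2, and NCAM2, LRFN1 and SLITRK4 were higher in ΔSE12313-b (background 1.07% and 1.21%). SLITRK4 had 0.773, 1.56 and 0.841 FPKM in ΔE2 and 2.7, 2.62 and 4.63 in ΔSE12313-b, and LRFN1, which organises synapses, 0.268, 0.149 and 0.164 and 1.55, 1.14 and 0.865. SLITRK1 had 10.5, 14.5 and 12.4 and 4.58, 5.05 and 8.52. RTN4RL2, a receptor of the Nogo family, had 2.81, 4.01 and 3.42 FPKM against 11.9, 11.7 and 24.6, on an arm (11q) that was shifted the other way. Of proteins of vesicle release SYT9 (265 reads in ΔE2, 1 in ΔSE12313-b), UNC13A (1.49 to 2.71 against 0.227 to 0.476 FPKM) and RIMS1 (1.12 to 2.1 against 0.161 to 0.188) were higher in ΔE2. DNER, GRID1, PLXNB3, MAP1A, ADGRB2 and SLC6A4, the serotonin transporter, were higher in ΔSE12313-b. EPB41L1, a relative of EPB41L3, went the other way from it, with 3.15, 3.58 and 3.01 FPKM in ΔE2 and 9.997, 8.44 and 12.3 in ΔSE12313-b. PPL (periplakin), a linker of the cytoskeleton to the membrane of epithelia, had 0.008, 0.038 and 0.035 against 1.59, 1.57 and 3.67 FPKM. SLITRK1 lost its call without any clone but ΔSE12313-b clone 3 (adjusted p up to 0.0958), as did SLITRK4 without ΔE2 clone 1 or 3 or ΔSE12313-b clone 1 or 3 (adjusted p up to 0.0808). SLITRK1 and ADGRB2 lost the call when neighbouring genes were centred.

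Signalling proteins best known from leukocytes formed a list after the values were seen. Of 21 tested, 4 were higher in ΔE2 and 5 were higher in ΔSE12313-b (background 1.07% and 1.21%). FERMT3 (kindlin 3), which activates integrins in blood cells, had 14.6, 19.8 and 22.9 FPKM in ΔE2 and 1.35, 1.74 and 1.25 in ΔSE12313-b, where it stood below the controls at 15.4 and 14.7. LCP2 (SLP-76), an adaptor of T cell and platelet receptors, had 157 reads in ΔE2 and 3 in ΔSE12313-b, a ratio of 49.1 (95% interval 16.5 to 241) per library size. PLCB2, described above, was another. Higher in ΔSE12313-b were the kinase LYN (13.3, 12.7 and 16.1 against 5.03, 6.46 and 5.99 FPKM), the adaptor PIK3AP1 (1.66, 1.61 and 1.18 against 0.208, 0.073 and 0.23) and the actin bundler LCP1 (8.93, 12.8 and 5.44 against 2.65, 4.12 and 2.2). The transcription factor NFATC2 (5.44 to 6.29 against 2.17 to 2.56 FPKM) and the actin regulator WIPF1 (2.26 to 3.75 against 1.02 to 1.46) completed this group. Outside the list, the integrin chain ITGAX (CD11c) was the DEG among 16 integrin subunits, with 1.41, 2.11 and 1.4 FPKM in ΔE2, 5.95, 6.11 and 6.43 in ΔSE12313-b and 12.1 and 11.2 in the controls. It kept the call after its arm 16p had been centred (adjusted p 0.0126, limma, Benjamini-Hochberg). LCP1 lost its call without ΔE2 clone 1 or 3 or ΔSE12313-b clone 1 or 2 (adjusted p up to 0.1003). WIPF1 lost its call without ΔE2 clone 1 or 3 or ΔSE12313-b clone 3 (adjusted p up to 0.0714).

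Siglecs are receptors that bind sialic acid. Of 6 tested, a family also chosen after the values were seen, CD33, SIGLEC5, SIGLEC14 and SIGLEC15 were higher in ΔE2 (background 1.07%). CD22 was higher in ΔSE12313-b (background 1.21%). CD33 had 11.2, 10.7 and 11.3 FPKM against 5.14, 4.95 and 5.43, with little spread (adjusted p 0.00171, limma, Benjamini-Hochberg). CD22 had 0.305, 0.17 and 0.401 against 3.01, 5.23 and 2.54 FPKM. SIGLEC5 and SIGLEC14 are nearly identical neighbours, and reads of either may have been counted for the other. Other proteins best known from blood cells were the lectin CLEC2B (0.052, 0.144 and 0.072 FPKM in ΔE2, 3.03, 2.76 and 3.69 in ΔSE12313-b), FCER2 (CD23), GPR183 and the GTPase GIMAP4, all higher in ΔSE12313-b, and LYZ (lysozyme) and HLA-DPA1, both higher in ΔE2. HLA-DPA1 was the DEG among 9 genes of MHC class II, at 1.88 to 3.77 against 1.09 to 1.15 FPKM, and LYZ had 0.693 to 2.67 against 0.041 to 0.224. SIGLEC5 lost its call without ΔE2 clone 3 (adjusted p 0.0555), as did SIGLEC15 without ΔE2 clone 1 (adjusted p 0.0559). FCER2 lost its call without any clone but ΔSE12313-b clone 3 (adjusted p up to 0.0645), as did GIMAP4 without ΔE2 clone 1 or 3 or ΔSE12313-b clone 1 (adjusted p up to 0.0548). LYZ lost its call without ΔE2 clone 3 or ΔSE12313-b clone 1 (adjusted p up to 0.0766), as did HLA-DPA1 without any 1 of the 6 clones (adjusted p up to 0.099).

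Most of the DEGs among enzymes that build the glycans of the cell surface were higher in ΔSE12313-b. Tested were 59 glycosyltransferases and sulfotransferases, a group added after the values were seen. Of these 1 was higher in ΔE2 and 5 were higher in ΔSE12313-b (background 1.07% and 1.21%). GALNT3, which starts O-glycans, had 3.51, 3.25 and 3.84 FPKM in ΔE2, and its ΔSE12313-b libraries held 1 read against 569 in ΔE2, a ratio of 534 (95% interval 95.5 to 21135) per library size. ST3GAL6, which adds sialic acid, had 2 reads in ΔE2 and 315 in ΔSE12313-b, a ratio of 168 (95% interval 46.1 to 1391). B3GNT5, which makes the core of lacto-series glycolipids, had 0.089, 0.057 and 0.071 FPKM in ΔE2, 2.63, 2.7 and 3.12 in ΔSE12313-b and 2.54 and 3.56 in the controls. GCNT3, which branches O-glycans, had 6 and 108 reads. The sulfotransferase CHST2 had 1.7, 1.95 and 1.92 and 5.22, 5.55 and 5.8 FPKM and B4GALNT4 1.28, 1.43 and 1.09 and 3.42, 2.6 and 3.28. B4GALNT4 lost its call when neighbouring genes were centred. GCNT3 lost its call without ΔSE12313-b clone 1 (adjusted p 0.0525).

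CYBA (chromosome 16, 88709697 to 88717492, minus strand), the p22phox subunit that NADPH oxidases need to produce superoxide, stood at 13.1, 9.31 and 5.55 FPKM in ΔE2 and at 11.7 and 9.27 in the controls, and its ΔSE12313-b libraries held 2 reads against 347. The ratio per library size was 163 (95% interval 44.8 to 1350.3), and the adjusted p was 0.00171 as measured and 0.0023 after centring (limma, Benjamini-Hochberg). Among the other subunits, chosen after the values were seen, NOX4 (1.45, 2.54 and 1.84 against 0.876, 0.612 and 1.11 FPKM) was higher in ΔE2 as measured. NOX4 lies on 11q and did not pass after centring (adjusted p 0.126). MT1E, a metallothionein that binds zinc and copper, had 7.73, 6.18 and 11.3 FPKM in ΔE2 and no read in ΔSE12313-b. Metallothioneins are near copies of each other, so its reads are uncertain, and of the others MT1X had 30.8, 32.9 and 43.8 and 35.7, 37.9 and 33.6 FPKM (adjusted p 0.972) and MT2A 709.98, 731 and 760.03 and 453, 377 and 491. Among 34 targets of NRF2, the main regulator of antioxidant enzymes, there was no DEG in either direction, with 15 of them under an unadjusted p of 0.05 (35.7% of all genes were) and 0 DEGs by voom. CYB5R2, a cytochrome b5 reductase, had 110 reads in ΔE2 and 2 in ΔSE12313-b.

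The lysosomal genes that were DEGs were higher in ΔSE12313-b. Of 47 tested, a list drawn up after the values were seen, 4 were DEGs and all 4 were higher in ΔSE12313-b (background 1.21%). In 27 of the 47 the ΔSE12313-b clones were all above the ΔE2 clones, against 29.8% of all genes tested. The median of the list was -0.47 as measured, against -0.11 for all genes, and -0.36 after centring, against 0.01. ACP5, an acid phosphatase, stood at 1.28, 3.45 and 0.699 FPKM in ΔE2, at 19.3, 20.7 and 67.1 in ΔSE12313-b and at 3.75 and 2.99 in the controls. GPNMB, a membrane glycoprotein of lysosomes and melanosomes, had 2.75, 5.27 and 2.92 against 24.8, 25.7 and 33.7 FPKM, with the controls between them at 8.78 and 8.54. The mannosidase MAN2B1 had 10.1, 12.6 and 10.4 against 25.7, 27.3 and 35.5 and the peptidase DPP7 25.8, 24.8 and 20.6 against 56.8, 51.2 and 55.9, and both lost their call when neighbouring genes were centred. Others passed the test as measured and fell short of 2-fold, such as the protease CTSD, with 92.7, 104 and 97.9 against 169, 155 and 158 FPKM and a log2 difference of -0.71. The membrane protein LAMP1 had 51.6, 59.1 and 52.2 against 70.9, 66.5 and 84.8 (log2 difference -0.44). CYSTM1, NRROS and LGALS3BP were further surface or secreted proteins at 3-fold or more.

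Transporters gave DEGs in both directions. The drug exporters ABCB1 and ABCG2, the DEGs among 27 ABC transporters, went opposite ways. ABCB1 had 1.4, 2.3 and 2.1 FPKM in ΔE2 and 0.617, 0.06 and 0.014 in ΔSE12313-b, where clone 1 was far above the others, and ABCG2 had 3.3, 3.32 and 3.17 and 11.2, 11.2 and 8.7 with little spread. Of 201 solute carriers 3 were higher in ΔE2 (SLC7A8, SLC52A3 and SLCO1B3) and 4 in ΔSE12313-b (SLC16A7, SLC22A3, SLC6A4 and SLC22A18), near the background in both directions. SLC16A7, a transporter of lactate and pyruvate, had 2 reads in ΔE2 and 472 in ΔSE12313-b, a ratio per library size of 251 (95% interval 69.2 to 2082). SLC7A8, which carries neutral amino acids, had 0.719, 0.595 and 0.522 against 0.059, 0.048 and 0.03 FPKM. SLC22A3, which carries organic cations, had 0.373, 0.235 and 0.114 against 1.56, 1.42 and 1.56. FLVCR2 (0.856 to 0.969 against 0.106 to 0.133 FPKM) and the water channel AQP11 (2.67 to 4.05 against 0.707 to 0.957) were higher in ΔSE12313-b. ABCB1 lost its call without any clone but ΔSE12313-b clone 1 (adjusted p up to 0.0916), as did SLC52A3 without ΔE2 clone 3 or ΔSE12313-b clone 1 or 2 (adjusted p up to 0.0619).

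In metabolism single enzymes differed. ENO2, the neuronal enolase, was the DEG among 27 enzymes of glycolysis and the pentose phosphate path, with 3.5, 4.14 and 3.9 FPKM in ΔE2 and 11.7, 15.1 and 12.2 in ΔSE12313-b, a level the controls shared at 12.4 and 11.8. In 17 of these 27 genes the ΔSE12313-b clones were all above the ΔE2 clones, against 4110 of the 13789 genes tested (29.8%). CA12, a carbonic anhydrase, was the DEG among 27 hypoxia genes, at 1.62, 1.92 and 2.36 against 4.6, 4.81 and 3.71 FPKM, and lost its call when neighbouring genes were centred. Enzymes of sphingolipids and steroids were higher in ΔSE12313-b, namely SPTLC3 (13.6, 14.6 and 12.1 against 3.88, 4.04 and 4.71 FPKM), CERS1 (1.18 to 1.52 against 0.459 to 0.722), HSD3B7 (1.64 to 2.28 against 0.442 to 0.551) and CYP11A1 (4.32 to 5.34 against 1.49 to 2.13). So were the sulfotransferase SULT1A1 (15.9 to 17.8 against 3.83 to 5.93 FPKM), the aldehyde dehydrogenase ALDH3B1 (2.11 to 3.99 against 0.514 to 0.656) and GGT1, which cleaves glutathione (15.9 to 18.3 against 6.34 to 6.65). GGTLC1 and GGTLC2 share sequence with GGT1 and moved with it, so their reads cannot be told apart. ALDH1L2, a mitochondrial enzyme of folate metabolism, was higher in ΔE2 at 0.92, 1.05 and 0.919 against 0.314, 0.404 and 0.31 FPKM, with the controls above both at 3.13 and 3.33. CA12 fell just under 2-fold without ΔE2 clone 1, and CERS1 lost its call without ΔE2 clone 1 or 3 or ΔSE12313-b clone 1 or 3 (adjusted p up to 0.067).

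Of kinases and G protein signalling, PAK1 (chromosome 11, 77033060 to 77185108, minus strand), an effector of Rac and Cdc42 on the cytoskeleton, had 7.92, 8.28 and 9.27 FPKM in ΔE2 and 26.1, 25 and 25.5 in ΔSE12313-b. Its arm 11q was shifted towards ΔE2, so centring enlarged its difference from -1.58 to -1.86, with an adjusted p of 1.63e-04 (limma, Benjamini-Hochberg). Its neighbours MYO7A and AQP11 moved in the same direction. LIMK1, a kinase downstream of PAK1, had 17.8, 18.6 and 16.4 against 39.99, 37.4 and 38.7 FPKM and lost its call when neighbouring genes were centred. The kinases PRKD1, PRKCZ, CDK14 and MAPK13 were higher in ΔSE12313-b, with PRKD1 at 5.93, 6.01 and 8.21 against 1.42, 2.05 and 2.66 FPKM and CDK14 at 3.6, 3.29 and 3.39 against 0.925, 0.96 and 1.03. The inhibitory G protein subunit GNAI1 had 0.095, 0.159 and 0.222 against 1.18, 1.2 and 1.16 FPKM. Higher in ΔE2 were LPAR1, a receptor of lysophosphatidic acid (11.9, 5.39 and 12.1 against 3.15, 3.61 and 1.94 FPKM), the phospholipase PLCB4 (14.1 to 22.8 against 6.07 to 10.9), and the exchange factors ARHGEF15 and RAPGEF5. The growth factors TGFA (2.21 to 3.7 against 0.755 to 1.28 FPKM) and NRG2 (1.05 to 1.53 against 0.113 to 0.508), ligands of the EGF receptor family, were higher in ΔSE12313-b. MAPK13 lost its call without ΔE2 clone 3 or ΔSE12313-b clone 1 (adjusted p up to 0.0554), as did LPAR1 without any clone but ΔE2 clone 2 (adjusted p up to 0.0946). PLCB4 lost its call without ΔE2 clone 1 or 3 or ΔSE12313-b clone 2 or 3 (adjusted p up to 0.0975), as did ARHGEF15 without ΔE2 clone 1, 2 or 3 or ΔSE12313-b clone 2 (adjusted p up to 0.0645). RAPGEF5 lost its call without ΔE2 clone 3 or ΔSE12313-b clone 1 or 2 (adjusted p up to 0.0891), as did TGFA without ΔE2 clone 1 or 3 or ΔSE12313-b clone 1 or 2 (adjusted p up to 0.0688). NRG2 lost its call without any clone but ΔE2 clone 2 (adjusted p up to 0.0774).

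Developmental pathways contributed a few genes. FZD8, a Wnt receptor, was the DEG among 20 Wnt genes, with 1.58, 1.1 and 1.31 FPKM in ΔE2, 5.7, 5.73 and 7.02 in ΔSE12313-b and 9.92 and 10.6 in the controls, and it held after its arm 10p had been centred (log2 difference -1.495). HHIP, which binds and blocks hedgehog ligands, had 26.9, 19.6 and 25.4 FPKM in ΔE2, 8.9, 4.27 and 3.98 in ΔSE12313-b and 4.34 and 3.67 in the controls. Its antisense neighbour HHIP-AS1 moved with it, and with strand handling not stated the pair cannot be told apart. DISP2, a relative of the protein that releases hedgehog, was the other DEG among 10 hedgehog genes, a list added after the values were seen, while the target gene PTCH1 had 1.31, 1.33 and 1.18 and 1.61, 1.27 and 1.38 FPKM (adjusted p 0.559, limma, Benjamini-Hochberg). Among transcription factors HOPX (3.26 to 4.32 against 0.118 to 0.386 FPKM), LBH (3.005 to 3.86 against 0.276 to 0.572), FOXF2, KLF9 and ZFPM2 were higher in ΔE2. ARID5B (0.714 to 1.15 against 0.065 to 0.096 FPKM), FOXS1, TSHZ1 and TOX2 were higher in ΔSE12313-b. Of 28 immediate early and ERK feedback genes EGR1 (2.94, 1.98 and 5.18 against 0.734, 0.991 and 0.663 FPKM) and ATF3 (6.2, 5.88 and 9.85 against 3.96, 3.38 and 2.99) were higher in ΔE2. KLF9 lost its call without any clone but ΔSE12313-b clone 3 (adjusted p up to 0.0845), as did ZFPM2 without any 1 of the 6 clones (adjusted p up to 0.123). EGR1 lost its call without ΔE2 clone 1 or ΔSE12313-b clone 1 (adjusted p up to 0.0625), as did ATF3 without any clone but ΔE2 clone 2 (adjusted p up to 0.0693). ZFPM2 and HHIP-AS1 lost the call when neighbouring genes were centred.

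Further protein-coding DEGs, named here after their values were seen, belonged to no list. Of proteins of the cytoskeleton and of adhesion sites, NEDD9 (0.439 to 0.73 against 0.041 to 0.075 FPKM), FILIP1 (1.02 to 1.75 against 0.144 to 0.213) and FILIP1L (3.72 to 6.19 against 1.08 to 1.81) were higher in ΔE2. Palladin (PALLD, 2.41 to 4.28 against 1.12 to 1.5 FPKM), the LIM protein PDLIM1 (6.36 to 9.85 against 1.93 to 2.76), the kinase MYLK2 (14.7 to 19.3 against 6.13 to 8.6) and CDC42EP5 (3.5 to 5.82 against 1.003 to 1.84) were higher in ΔSE12313-b. VGLL3, a cofactor of TEAD factors, had 16.4, 13.5 and 18.8 FPKM in ΔE2 and 9.6, 8.46 and 5.69 in ΔSE12313-b. CSTA, an inhibitor of cysteine proteases, had 10.4, 10.3 and 8.67 against 1.59, 1.15 and 1.38 FPKM, and the controls at 9.29 and 10.5 overlapped with ΔE2. The cation channel TRPV2 (6.76 to 9.27 against 3.38 to 3.81 FPKM), the tetraspanin TSPAN12 (3.04 to 4.43 against 1.17 to 1.87) and LRRC8B, a subunit of volume-regulated anion channels (3.69 to 5.68 against 1.1 to 1.55), were higher in ΔSE12313-b. KCP, a secreted regulator of BMP signalling, had 0.235, 0.212 and 0.126 FPKM in ΔE2, 3.45, 4.83 and 2.8 in ΔSE12313-b and 4.16 and 3.95 in the controls. MCC, named for its mutation in colorectal cancer, had 0.185, 0.206 and 0.286 against 1.79, 1.5 and 1.96 FPKM and the cochaperone DNAJC12 1.04, 1.65 and 1.28 against 7.12, 6.05 and 6.06. TM4SF19 (2.9 to 7.96 against 0.24 to 0.452 FPKM) overlaps with a read-through transcript that moved with it. APLP2, a relative of the amyloid precursor protein, was the most abundant DEG coding for a protein, at 297, 361 and 315 FPKM in ΔE2 and 129.8, 114 and 153 in ΔSE12313-b. It lies on the shifted arm 11q and lost its call when neighbouring genes were centred. HBE1, the embryonic epsilon globin, had 11.1, 10.7 and 9.33 against 22.8, 28.1 and 24.7 FPKM, and its neighbour OR51B4, an olfactory receptor, 2.47, 2.19 and 2.52 against 7.41, 7.69 and 4.6. PALLD lost its call without ΔE2 clone 1 or 3 or ΔSE12313-b clone 1 or 2 (adjusted p up to 0.0635), as did VGLL3 without ΔE2 clone 1 or 3 or ΔSE12313-b clone 2 or 3 (adjusted p up to 0.0782).

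Genes known from the germ line, the X chromosome or imprinting were few. MAGEC2, a cancer-testis antigen, had 2.58, 7.55 and 1.37 FPKM in ΔE2 and 0.031, 0.102 and 0 in ΔSE12313-b, and the controls were above both at 8.47 and 7.999. It was 1 of 14 tested. The non-coding RNA XIST of the X chromosome had 0.448, 1.68 and 1.41 FPKM in ΔE2 and 0, 0.007 and 0.036 in ΔSE12313-b (adjusted p 0.00837, limma, Benjamini-Hochberg). The controls stood at 1.34 and 1.23 FPKM of XIST. RFPL4A and RFPL4AL1 (4.05 to 4.87 against 0.139 to 0.894 FPKM for the first) are near copies and cannot be told apart. MOV10L1, which acts in germ cells against transposons, had 1.53, 1.8 and 1.81 against 0.364, 0.412 and 0.385 FPKM. The testis histone HIST1H1T was the DEG among 67 clustered histone genes, with 42 reads in ΔE2 and 1 in ΔSE12313-b. Of 25 imprinted genes the neighbours SLC22A18 (0.382, 0.757 and 0.357 against 2.42, 1.7 and 2.45 FPKM) and PHLDA2 (12.5, 6.38 and 9.54 against 21.9, 19.3 and 20.3), which share an imprinted domain on 11p, were higher in ΔSE12313-b. In all, 17 pairs of DEGs were next to each other among the genes tested and had the same direction. Some are overlapping transcripts or copies, such as HHIP with HHIP-AS1, ZNF559 with ZNF559-ZNF177, MIR3680-1 with MIR3680-2 and RFPL4A with RFPL4AL1. How many such pairs would arise without any grouping was not worked out. PHLDA2 lost its call without any clone but ΔE2 clone 1 (adjusted p up to 0.0714). PHLDA2 lost its call also when neighbouring genes were centred.

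More non-coding DEGs were higher in ΔE2 than in ΔSE12313-b. The libraries differed too in the part of their reads that fell on the transcripts kept. It was 13371431 of 19101155, 12220690 of 17124025 and 9979509 of 13616463 reads in the ΔE2 clones. In the ΔSE12313-b clones it was 12586444 of 16085527, 11145390 of 14814166 and 12461997 of 15890262, a higher share in every clone. Its part in the counts of this paragraph was not tested. Of 175 tested LINC genes 10 were higher in ΔE2 and 1 (LINC01579) was higher in ΔSE12313-b (background 1.07% and 1.21%). By voom 17 of them were DEGs, against 4.29% of all genes. LINC01425 had 14.5, 12.1 and 13.3 FPKM in ΔE2, 0, 0.268 and 0 in ΔSE12313-b and 15.8 and 17 in the controls. LINP1, known from the repair of DNA breaks, is named without the LINC prefix and went the other way, with 0.126, 0.071 and 0.177 FPKM against 4.21, 5.38 and 2.74. HAGLR, which lies in the HOXD cluster, had 4.37 to 4.56 FPKM in ΔE2 and 1.46 to 1.85 in ΔSE12313-b, while among 23 HOX genes there was no DEG, with 10 under an unadjusted p of 0.05 (35.7% of all genes were) and 1 DEG by voom. Of 350 small nucleolar RNAs, which guide the modification of ribosomal RNA, 14 were higher in ΔE2 and 2 were higher in ΔSE12313-b (background 1.07% and 1.21%). By voom 12 of the 350 were DEGs, against 4.29% of all genes. The median of the family was 0.42 as measured and 0.57 after centring, against -0.11 and 0.01 for all genes. SNORA73B was the most abundant, with 975, 702 and 907 FPKM in ΔE2 and 391.9, 259 and 552 in ΔSE12313-b. SNORA23 had 40.9, 31.4 and 39.5 against 9.92, 8.26 and 10.4. Most of the others rested on very few reads. Of the 31 DEGs that are micro, nucleolar or Cajal body RNAs, 23 had a mean under 10 reads over the 6 clones, such as MIR3685, SNORD114-20, MIR6749 and MIRLET7E, where FPKM near 1 stand for a handful of reads and no fold is given. MIR3680-1 and MIR3680-2 are identical copies with the same values. SNORA73B lost its call without any clone but ΔSE12313-b clone 3 (adjusted p up to 0.117).

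Large parts of the transcriptome showed no DEG between the deletions. Of 50 lists and families drawn up from the earlier results 17 held none, among them 43 S phase genes and 54 G2/M genes, with medians of -0.02 and -0.01, 9 and 10 genes under an unadjusted p of 0.05 in limma (35.7% of all genes were), and 0 DEGs by voom. No DEG was found either among 24 targets of p53, 16 genes of the Notch pathway, 22 of VEGF and angiopoietin signalling, 36 of TGF-beta and BMP signalling, 39 of cholesterol and fatty acid synthesis, 18 of MHC class I and 82 cytosolic ribosomal proteins. Over all genes 1.07% and 1.21% were DEGs higher in ΔE2 and higher in ΔSE12313-b, shares at which a short list may well hold none. The genes of the 17 lists number 550, of which 180 had an unadjusted p under 0.05 in limma, a share near the 35.7% of all genes, 9 were DEGs as measured only and 11 were DEGs by limma's voom on the reads. Of all genes tested 1.44% and 2.38% were DEGs as measured, higher in ΔE2 and higher in ΔSE12313-b, and 4.29% were DEGs by voom. The 17 lists were picked for holding no DEG of both tests. These counts say that no gene passed the test and the 2-fold limit before and after centring, not that the deletions gave equal levels. Of the 43 genes of the S phase list 10 had clones that did not overlap between the deletions, 5 in each direction, against 40.8% of all genes.

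**Figure D5:**
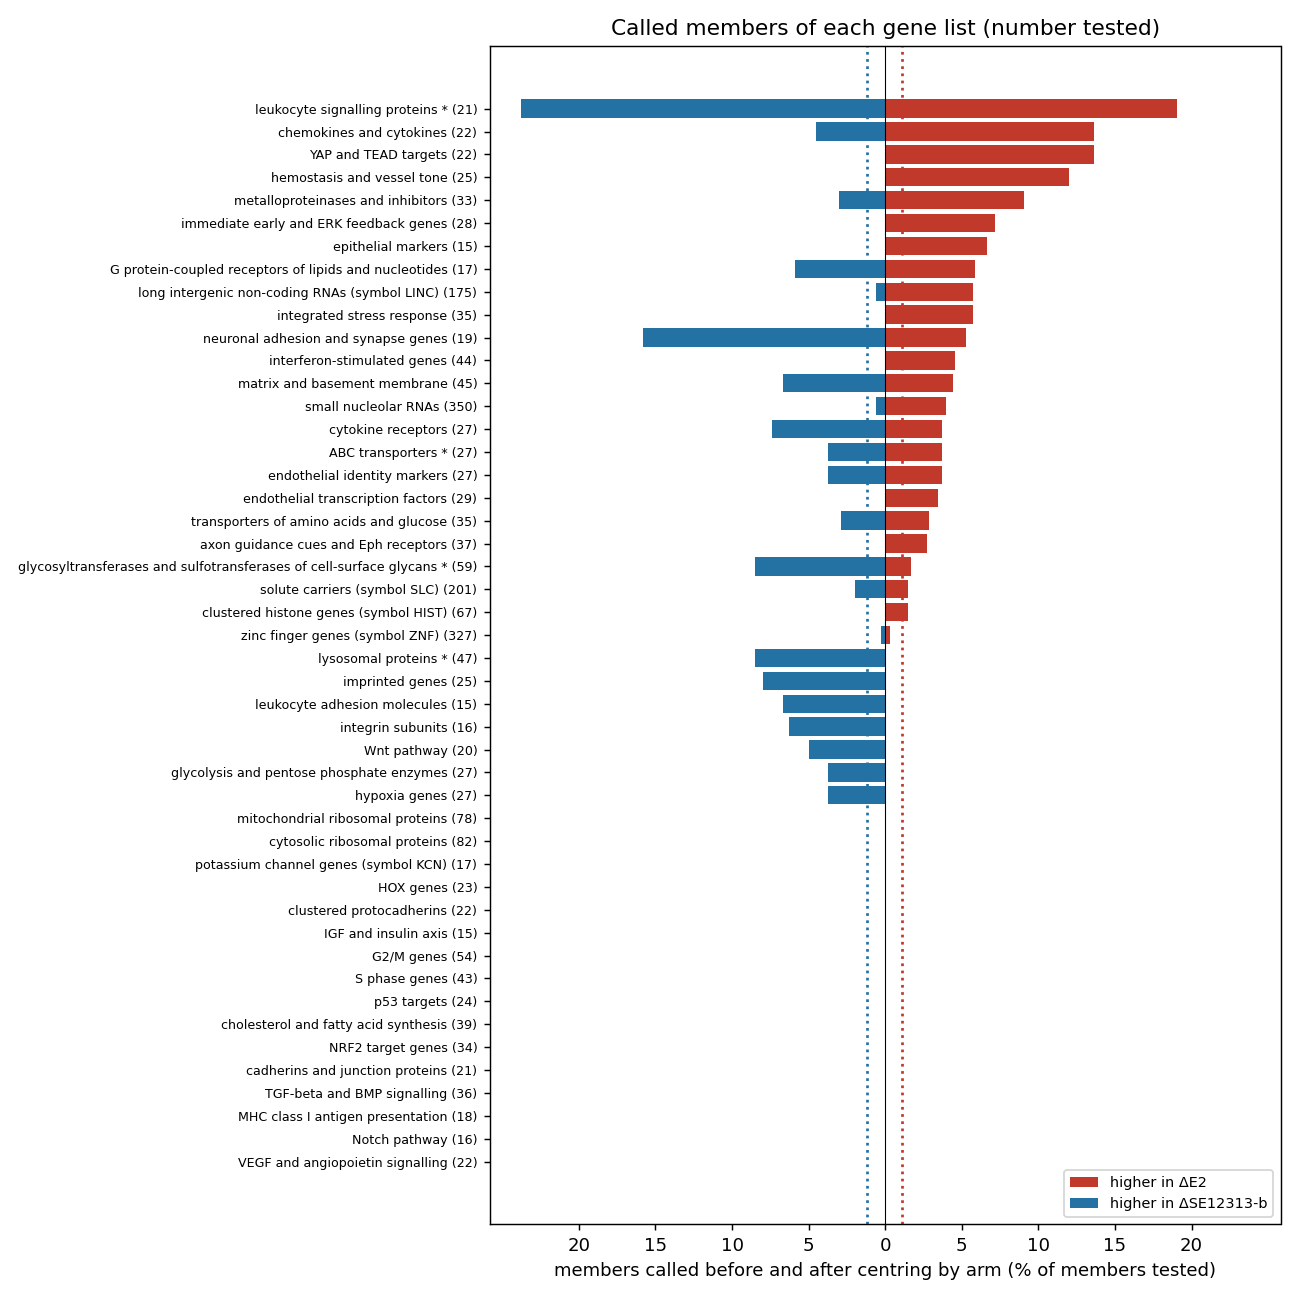
Share of the tested members of each list or family that were DEGs in both tests (x axis, % of members tested), higher in ΔE2 to the right and higher in ΔSE12313-b to the left, for lists with at least 15 members tested (number beside the name). Dotted lines mark the shares of all genes, 1.07% and 1.21%, and an asterisk marks lists drawn up after the values were seen, among them the leukocyte signalling proteins (4 and 5 of 21), which reach furthest to both sides in this plot. Next come chemokines and cytokines and the targets of YAP and TEAD towards ΔE2 (3 of 22 each), and neuronal adhesion and synapse genes towards ΔSE12313-b (3 of 19).

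Of the genes around the deletions 1 was a DEG between them. VAT1L, an oxidoreductase-like protein, stood at 3.17, 7.51 and 4.16 FPKM in ΔE2, at 13.7, 13.7 and 20.5 in ΔSE12313-b and at 27.5 and 26.4 in the controls. Both groups of clones were below the controls and the ΔE2 clones were the lowest, with a log2 difference of -1.74 ± 0.33 (SE), adjusted p 0.0155 (limma, Benjamini-Hochberg). ADAMTS18, a secreted metalloproteinase, had 0.133, 0.149 and 0.087 FPKM in ΔE2 and 0.232, 0.149 and 0.128 in ΔSE12313-b, against 0.682 and 0.859 in the controls. Its difference between the deletions was -0.27 ± 0.37 with an adjusted p of 0.652, and a difference was not detectable at this depth. CNTNAP4, an adhesion protein of neurons that was too low to be tested, had 0.072, 0.121 and 0.164 FPKM in ΔE2, no read in ΔSE12313-b and 0.434 and 0.456 in the controls. MON1B, NUDT7, SYCE1L and WWOX had adjusted p of 0.208 to 0.854. VAT1L lost its call without ΔE2 clone 1 or 3 or ΔSE12313-b clone 1 (adjusted p up to 0.0663).

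The position of the controls varied among the 314 DEGs. For the 147 genes higher in ΔE2, both controls lay between the groups of clones in 39, above both groups in 23 and below both in 13. In 31 they overlapped with the ΔE2 clones alone, in 34 with the ΔSE12313-b clones alone and in 7 with both. For the 167 genes higher in ΔSE12313-b, they lay between in 64, above both in 16 and below both in 20, and they overlapped with the ΔE2 clones alone in 36, with the ΔSE12313-b clones alone in 29 and with both in 2. In EPB41L3, NCAM2, PLAT and TMEM132D-AS1 the controls had an intermediate level. In CYBA and FERMT3 they overlapped with ΔE2, in IL33 with ΔSE12313-b, and in EDN1, CCL2 and SPP1 they were below all 6 clones.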

How the data were processed

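RNA-seq of 8 EA.hy926 samples was used, of which the 3 ΔE2 and 3 ΔSE12313-b clones were compared. For the deposited FPKM the authors used Trim Galore 0.4.4 and then STAR 2.5.4b on GRCh37, and gave 1 value per RefSeq transcript. The counter, the RefSeq release and the use of strands behind these FPKM are not given in the sources used here. The study's own DEGs came from featureCounts and edgeR on counts, which were not used.

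From the deposited FPKM, 1 of 65572 transcripts was kept per gene symbol (42 without a symbol were left out), and genes with at least 0.5 FPKM in at least 2 of the 8 samples were tested in R 4.3.3 by limma 3.58.1 on log2(FPKM + 0.1) (variance trend, two-sided, 6.51 degrees of freedom per gene after moderation, Benjamini-Hochberg adjustment). The values were whole multiples of 1 read in each library (100% within 0.1 read), which gave library sizes of 12067565 to 19101155 reads. For the second test each clone was centred, arm by arm, on the median of its log2 ratios to the 6-clone mean, over genes with a mean of at least 1 FPKM, where an arm had at least 30 of them. Where a group had no read, a bound was set against 3 reads in each of its libraries, and where it had few, the ratio of summed reads has an exact 95% binomial interval. Both tests were also run on simulated data, in which every gene had the same spread beyond counting error and only genes with many reads were changed. Such data cannot say how well changes of genes with few reads are found in these clones.

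The rule named the 15 largest DEGs of both tests in each direction, up to 5 per list, the genes around the deletions and the markers. The comparison, the lists and the rule were chosen with earlier results of these data known, and genes named beyond the rule were chosen after their values were seen. Alternatives were other pseudocounts, filters, centrings, thresholds and fits, and each clone left out. Some genes are not reported here.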

Additional observations from a re-analysis of the deposited data

How the results depend on the processing

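The 199 and 328 DEGs as measured (higher in ΔE2 and higher in ΔSE12313-b) moved to 94 and 137 with a pseudocount of 1, to 432 and 1024 at 1.5-fold, to 90 and 192 at an adjusted p under 0.01, to 180 and 170 with arms centred, and to 163 and 160 with neighbouring genes centred. They stayed within 1.5 times with a pseudocount of 0.01, other filters, libraries centred or quantile-normalized, all 8 libraries in 1 model, no variance trend and voom on the reads. The share higher in ΔE2, 37.8% as measured, was 53.3% with libraries centred, 47.3% after quantile normalization and 51.4% with arms centred. After centring by arm, the 180 and 170 DEGs moved to 99 and 77 with a pseudocount of 1. With 1 clone left out, the counts as measured ran from 115 to 185 and from 232 to 378, those after centring from 79 to 160 and from 90 to 196, and those of both tests from 74 to 134 and from 89 to 193. The clone numbers do not pair the samples, since same-numbered clones correlated at 0.167, -0.184 and -0.119 in their deviations from the group means. For clones of different number the correlations ran from -0.164 to 0.251, the highest for ΔE2 clone 2 with ΔSE12313-b clone 3. With the number as a replicate block, the counts were 124 and 234 as measured, 27 and 26 after centring, and 25 and 26 in both tests. A filter of at least 10 reads on average, chosen after seeing the data, gave 136 and 178 DEGs of both tests. Of the values of 113 named genes over the alternatives 1796 kept sign and side of the threshold, 201 in 59 genes were no longer past it, and 6 changed sign in 2 genes that were not DEGs. NUDT7 went to -0.005 with arms centred and -0.049 with neighbouring genes centred, and SYCE1L to -0.08 and -0.1, from -0.117 (without ΔE2 clone 2) to 0.284 with 1 clone left out. The cause of these changes was not tested. At this depth genes with few reads, small RNAs above all, are the least certain.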
